A study of Saccharomyces cerevisiae with 12 samples.

Results

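The genes described here move iron, copper and zinc inside the cell of budding yeast or build iron-sulfur clusters. They are FTH1 (YBR207W), SMF3 (YLR034C), COT1 (YOR316C), MRS4 (YKR052C), ATX1 (YNL259C), ISU2 (YOR226C) and NAR1 (YNL240C). They were taken by exact symbol from the platform's gene table, and all 7 were measured, by 8 of 6912 spots, among 3127 genes tested. ISU2 had 2 spots and each other gene 1. The rule uses no measured value, although the genes were picked with earlier results of these data known.

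Each slide carried RNA of a mutant and of a wild-type strain in 2 channels. The strain Y18daft2, labelled aft1d aft2d, was set against CM3260 after 2 hours in 200 mM hydroxyurea, on 2 slides, and in rich medium (YPD) without it, on 2 further slides. A BY4741 strain labelled aft1d was set against BY4741 in hydroxyurea on 2 slides. All cultures were grown in YPD to an optical density of 0.5, and the mutant was in channel 2 on replicate 1 and in channel 1 on replicate 2 of each comparison. The labels do not describe the deletions further, and the Y18daft2 and aft1 pairs differ in strain background as well as genotype, so these cannot be told apart.

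When iron-sulfur cluster supply is low, the transcription factors Aft1 and Aft2 switch on the iron regulon of yeast. The regulon takes up iron at the surface, releases it from the vacuole, imports it into mitochondria and delivers copper to the oxidase of the high-affinity iron uptake system. Iron-sulfur clusters are built on a scaffold in the mitochondrial matrix and, for cytosolic and nuclear proteins, by a separate machinery in the cytosol. Hydroxyurea inhibits ribonucleotide reductase, an enzyme that needs iron.

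Each slide gave 1 log2 ratio per gene, mutant over wild type, after centring and removal of a trend that the columns shared by channel. Each SE and adjusted p is from a limma fit over the 6 slides with Benjamini-Hochberg adjustment over all 3127 genes, and a gene is said to rise or fall only where the adjusted p was under 0.05. The direction of the ratio was taken from the AFT1 spot on the aft1 slides and is likely, not settled, and the log base is assumed. All calls of the 7 genes below were lost when the shared trend was taken from the slides of the other comparisons instead of all 6 slides. AFT1 read -2.82 and -3.29 in the aft1 strain, but -0.25 and -0.10 in Y18daft2 in hydroxyurea and -0.23 and 0.10 in rich medium. The AFT2 spot gave -0.15 and -0.18 on the hydroxyurea slides of Y18daft2, 0.05 and -0.17 on its rich medium slides, and 0.24 and 0.50 on the aft1 slides. Neither spot was called lower on the Y18daft2 slides (lowest adjusted p = 0.903, limma), and whether the spots lie in the deleted parts is not known here. FIT3, a cell wall mannoprotein that holds siderophore-bound iron and a known Aft1 target, fell in each comparison, at -1.62 in Y18daft2 in hydroxyurea, -2.55 in rich medium and -1.73 in the aft1 strain (SE 0.13 each; largest adjusted p = 0.000154, limma). Its call in Y18daft2 in hydroxyurea was lost without replicate 2 (-1.34, adjusted p = 0.122, limma) and with all 12 columns fitted (adjusted p = 0.127).

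Of the 7 genes SMF3 had the widest spread between comparisons, lowest in Y18daft2 and highest in the aft1 strain in hydroxyurea. SMF3, a vacuolar membrane transporter of the Nramp family that releases stored iron, read -0.97 and -0.70 in Y18daft2 in hydroxyurea. It read -0.03 and -0.62 in Y18daft2 in rich medium, and 0.52 and 0.85 in the aft1 strain in hydroxyurea. Both Y18daft2 slides in hydroxyurea were thus low and both aft1 slides high, while the slides in rich medium lay far apart. The means were -0.83 (SE 0.155, 1.78-fold lower), -0.32 (1.25-fold lower) and 0.69 (1.61-fold higher), in the order given, each over 2 slides. None of these passed by itself, with limma adjusted p = 0.0957, 0.407 and 0.0667. In rich medium the value depended on which slide was kept: the fit gave -0.76 without replicate 1 and 0.11 without replicate 2. The slides left read -0.62 and -0.03 themselves. With 1 slide left, the fit adjusts it by a coefficient for the channel of the mutant, which then comes from the other comparisons. In weak scans alone the values in hydroxyurea passed in both strains (adjusted p = 0.00449 in Y18daft2 and 0.00245 in the aft1 strain, limma). SMF3 stood at position 9 of 3127 genes by p in Y18daft2 in hydroxyurea, with 0.16% of genes at or below its value. In bulk cultures such as these, less RNA per cell and fewer cells carrying it cannot be told apart.

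FTH1, a vacuolar membrane protein related to the iron permease Ftr1 and thought to move iron out of the vacuole with the oxidase Fet5, read -0.42 and -0.32 in Y18daft2 in hydroxyurea. Its values were -0.53 and -0.10 on the rich medium slides and 0.72 and 0.17 on the aft1 slides. All 4 Y18daft2 slides were therefore below 0 and both aft1 slides above it. The fitted values were -0.37, -0.32 and 0.45 (SE 0.153 each), and none passed (limma adjusted p = 0.772, 0.408 and 0.214). COT1, which moves zinc and cobalt into the vacuole, read -0.09 and -0.25 in Y18daft2 in hydroxyurea, 0.14 and -0.26 in rich medium, and -0.08 and 0.51 in the aft1 strain. Its slides disagreed in sign in 2 of the 3 comparisons. The fitted values of -0.17, -0.06 and 0.21 (SE 0.156) did not pass, with a lowest adjusted p of 0.598 in limma.

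**Figure D1:**
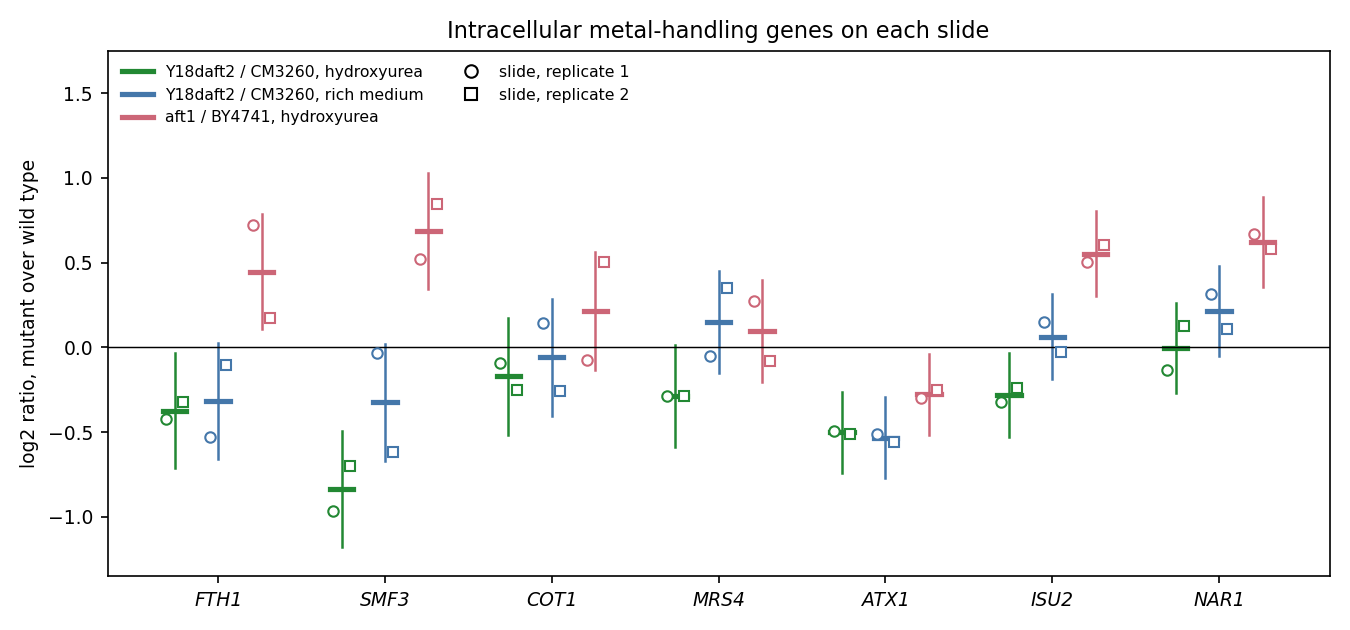
Log2 ratio of mutant over wild type for the 7 genes in Y18daft2 over CM3260 in hydroxyurea, the same pair in rich medium, and aft1 over BY4741 in hydroxyurea. Open symbols are single slides (circle replicate 1, square replicate 2), thick bars fitted means and thin lines 95% intervals of the fit. ATX1 lies below 0 on all 6 slides, whereas SMF3, ISU2 and FTH1 lie below 0 on both Y18daft2 slides and above 0 on both aft1 slides in hydroxyurea.

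MRS4 encodes a carrier that imports iron into mitochondria. It read -0.29 and -0.29 in Y18daft2 in hydroxyurea, -0.05 and 0.35 in rich medium, and 0.27 and -0.08 in the aft1 strain. The hydroxyurea slides of Y18daft2 were close together and below both slides in rich medium. The fitted values of -0.29, 0.15 and 0.09 (SE 0.136) did not pass (limma adjusted p = 0.9, 0.721 and 0.827). MRS4 has a close paralog, MRS3, with a spot of its own, which read -0.15, -0.10 and 0.31 in the same comparisons. Whether the spots tell the paralogs apart was not tested.

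ATX1 was low in every comparison, with slides that lay close together. It encodes the cytosolic copper chaperone that hands copper to the pump Ccc2, which loads the iron oxidase Fet3. ATX1 read -0.49 and -0.51 in Y18daft2 in hydroxyurea, -0.51 and -0.56 in rich medium, and -0.30 and -0.25 in the aft1 strain. It was below 0 on all 6 slides, as were 3.01% of the 3127 genes, and the slides of a comparison differed by at most 0.049. Each slide value is the mean of 2 scans, which could lie further apart than the slides. They were furthest apart on replicate 2 in rich medium, at -0.84 in the strong and -0.28 in the weak scan. In Y18daft2 in rich medium ATX1 fell 1.45-fold, at -0.53 (SE 0.108, n = 2 slides; adjusted p = 0.0323, limma). The values of -0.50 in hydroxyurea and -0.28 in the aft1 strain, with the same SE, did not pass (adjusted p = 0.185 and 0.28, limma). Without the channel coefficient, the replicate block, the value in hydroxyurea in Y18daft2 passed (adjusted p = 0.0418, limma).

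The pattern of ATX1 was also present in the table as deposited. With the mutant in channel 2 the ATX1 spot read 0.19 and 0.67 (weak and strong scan) in Y18daft2 in hydroxyurea, 0.25 and 0.61 in rich medium, and 0.24 and 1.31 in the aft1 strain. With the mutant in channel 1 it read -0.74 and -0.42, then -0.42 and -0.65, then -0.22 and -0.32. All 6 columns of the first kind were above 0 and all 6 of the other kind below it, which held for 3 of 3127 genes (0.0959%): ATX1 and the surface uptake genes FIT3 and ENB1. This count was added after the values were seen and follows the signs of ATX1 itself, so it describes the pattern and is no test of it. It uses no centring or trend removal, and the 12 columns are 2 scans of 6 slides. Columns with the mutant in channel 1 had medians between -0.53 and -0.04 over all spots. The column of the 1.31 had a median of 0.85, and the other columns with the mutant in channel 2 had medians below 0. The fall in rich medium was not called in strong scans alone (-0.71, adjusted p = 0.0827, limma), with all 12 columns fitted (-0.53, adjusted p = 0.118), without replicate 1 (-0.57, adjusted p = 0.229) or without replicate 2 (-0.50, adjusted p = 0.575). It was also not called as deposited, with centring alone or with the trend taken from the other comparisons, and over its 10 alternatives the value ran from -0.71 to -0.35 and the adjusted p between 0.00994 and 1.

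**Figure D2:**
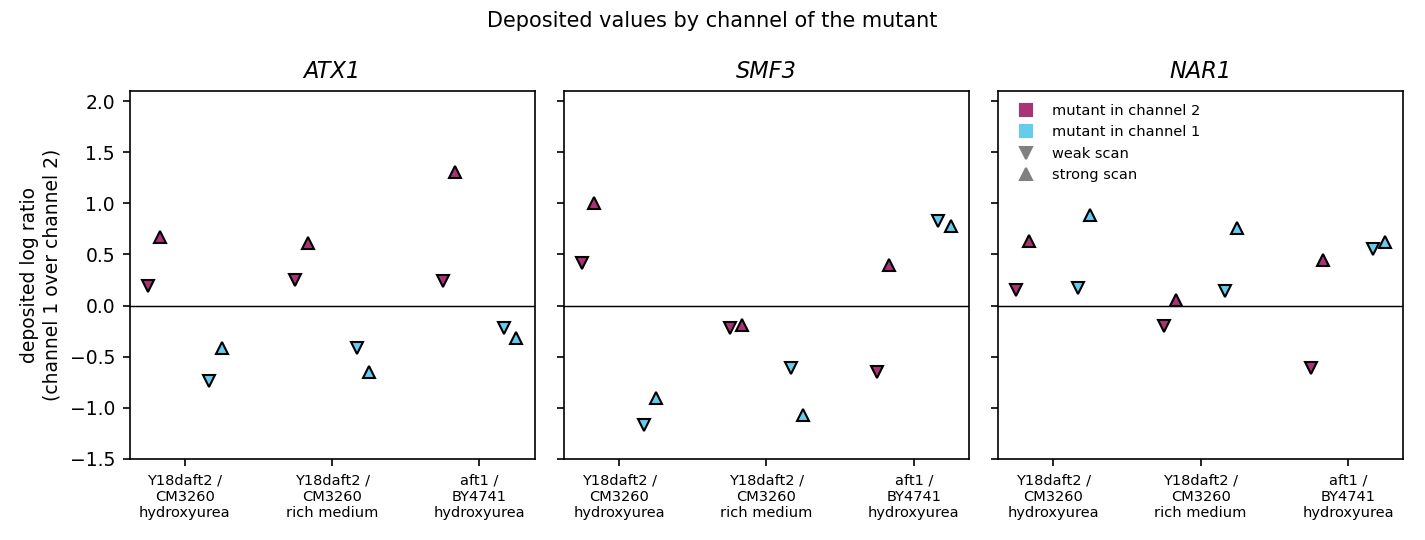
Deposited log ratios (channel 1 over channel 2, not centred) of ATX1, SMF3 and NAR1 in the 12 columns, by comparison, coloured by the channel that held the mutant, with triangles down for weak and up for strong scans. ATX1 is above 0 wherever the mutant was in channel 2 and below 0 wherever it was in channel 1. SMF3 does so in Y18daft2 in hydroxyurea (0.42 and 1 against -1.17 and -0.91, weak and strong scan), and NAR1 in no comparison. A gene higher in the mutant would show the reverse signs. In the aft1 comparison NAR1 reads -0.61 and 0.45 with the mutant in channel 2 and 0.55 and 0.62 with it in channel 1 (weak and strong scan). The column of the 0.45 has a median of 0.85 over all spots.

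Of the iron-sulfur assembly genes among the 7, NAR1 and ISU2, both rose in the aft1 strain. NAR1 encodes a hydrogenase-like iron-sulfur protein of the cytosolic assembly machinery. It read 0.67 and 0.58 in the aft1 strain, -0.13 and 0.12 in Y18daft2 in hydroxyurea, and 0.32 and 0.11 in rich medium. Its aft1 slides were the highest of the 6. NAR1 rose 1.54-fold in the aft1 strain, at 0.62 (SE 0.12, n = 2 slides; adjusted p = 0.0422, limma), whereas the values of 0.00 in Y18daft2 in hydroxyurea and 0.21 in rich medium did not pass (adjusted p = 0.998 and 0.49, limma).

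ISU2 encodes a scaffold protein on which mitochondria build iron-sulfur clusters, and it is a paralog of ISU1, for which no spot was used here. The mean of its 2 spots read 0.50 and 0.60 in the aft1 strain, -0.32 and -0.24 in Y18daft2 in hydroxyurea, and 0.15 and -0.03 in rich medium. ISU2 rose 1.47-fold in the aft1 strain, at 0.55 (SE 0.113, n = 2 slides; adjusted p = 0.0467, limma). It did not pass in Y18daft2 in hydroxyurea at -0.28 or in rich medium at 0.06 (adjusted p = 0.772 and 0.882, limma).

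The ISU2 spots disagreed in size. Spot 1 read 0.26 and 0.13 in the aft1 strain and -0.04 and -0.04 in Y18daft2 in hydroxyurea. Spot 2 read 0.75 and 1.08 in the aft1 strain and -0.60 and -0.45 in Y18daft2 in hydroxyurea. In rich medium spot 1 read -0.08 and 0.08 and spot 2 read 0.39 and -0.13, opposite in sign on both slides. In hydroxyurea the spots had the same signs, but the rise in the aft1 strain rested on spot 2: from that spot alone it was 0.91 (adjusted p = 0.0175, limma) and from spot 1 alone 0.19 (adjusted p = 0.497, limma). Which RNA each spot detects, ISU2 alone or ISU1 as well, is not known here. The spots lay at percentiles 23.2 and 72.1 of all spots along the channel trend, and the part of that position in the disagreement was not tested.

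The rises of NAR1 and ISU2 were lost when either aft1 slide was left out. Without replicate 1 they were 0.57 and 0.63, and without replicate 2 they were 0.68 and 0.48. Such a fit leaves 1 slide in that comparison, and why the calls were lost was not tested. Not every call in the aft1 strain was lost in this way: FIT3 kept its call at -1.64 without replicate 1 and at -1.82 without replicate 2. NAR1 and ISU2 were also not called in strong scans alone, as deposited, with centring alone or with the trend taken from the other comparisons. Over their alternatives NAR1 stayed between 0.33 and 0.68 and ISU2 between 0.19 and 0.91.

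Set against all genes, the 7 genes lay mostly below 0 in Y18daft2 in hydroxyurea and mostly above 0 in the aft1 strain. In Y18daft2 in hydroxyurea 0 of 7 were called, where 0.160% of all genes were (5 genes), and 4 had an unadjusted p under 0.05 (FTH1, SMF3, ATX1 and ISU2), against 5.56% of all genes. All 7 fitted values were below 0 there, as were 50.9% of all genes, and the median was -0.29 against 0.00 over all genes. On both slides 6 lay below 0, NAR1 being the exception, against 25.9% of all genes, and 0 lay above 0 on both, against 25.6%.

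In rich medium 1 of 7 was called, ATX1, where 2.01% of all genes were, and ATX1 was also the single one with an unadjusted p under 0.05, against 13.4%. There 4 of 7 fitted values were below 0, against 48.6% of all genes, and the median was -0.06 against 0.01. FTH1, SMF3 and ATX1 lay below 0 on both slides, against 31.0% of all genes, and NAR1 above 0 on both, against 35.1%. In the aft1 strain 2 of 7 were called, NAR1 and ISU2, both higher, where 1.28% of all genes were called in either direction. An unadjusted p under 0.05 was reached by 5 of 7 (ATX1 lower, FTH1, SMF3, ISU2 and NAR1 higher), against 14.1%. There 1 of 7 fitted values was below 0, ATX1, against 51.6% of all genes, and the median was 0.45 against -0.01. FTH1, SMF3, ISU2 and NAR1 lay above 0 on both aft1 slides, against 30.0% of all genes, and ATX1 below 0 on both, against 33.9%. None of the 7 was above 0 on all 6 slides, against 3.87% of all genes.

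**Figure D3:**
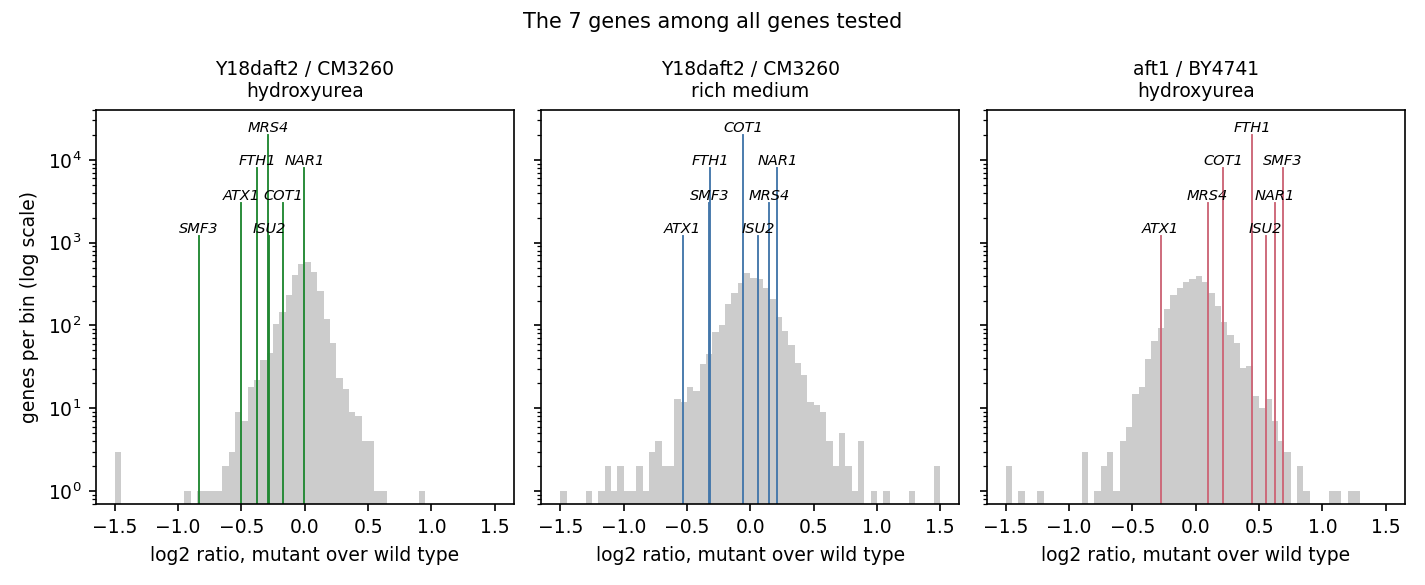
Distribution of fitted log2 ratios (mutant over wild type) of 3127 genes in each comparison, with gene counts per bin on a log scale and values beyond 1.5 in either direction placed in the end bins. Coloured lines mark the 7 genes, whose label heights carry no value. In Y18daft2 in hydroxyurea SMF3 at -0.83 and ATX1 at -0.50 lie in the lower tail, and in the aft1 strain SMF3, NAR1 and ISU2 at 0.69, 0.62 and 0.55 lie in the upper tail.

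The comparisons in hydroxyurea were then set against each other directly, Y18daft2 over CM3260 minus aft1 over BY4741. They share no slide and no wild type. SMF3 differed by -1.52 (SE 0.219, 95% interval -2.01 to -1.03), a 2.87-fold lower ratio in Y18daft2, and was called (adjusted p = 0.0219, limma), position 4 of 3127 by p. It was the single gene of the 7 called, where 0.352% of all genes were. ISU2 differed by -0.83 (SE 0.159, adjusted p = 0.0597), FTH1 by -0.82 (SE 0.217, adjusted p = 0.186) and NAR1 by -0.63 (SE 0.169, adjusted p = 0.199), none of which passed in limma. ISU2 passed without the replicate block (adjusted p = 0.0379, limma), in weak scans and with all 12 columns, but its difference was -0.23 from spot 1 alone (adjusted p = 0.667) and -1.44 from spot 2 alone (adjusted p = 0.0185). The FTH1 difference was -0.41 without aft1 replicate 1 and -1.23 without aft1 replicate 2 (adjusted p = 0.545 and 0.18, limma). For COT1 at -0.39, MRS4 at -0.38 and ATX1 at -0.23 the 95% intervals included 0. The slides of the comparisons did not overlap for any of the 7 genes, Y18daft2 being lower each time, against 23.7% of all genes. An unadjusted p under 0.05 was reached by SMF3, ISU2, FTH1 and NAR1, against 11.2%. FTH1, SMF3 and ISU2 lay below 0 on both Y18daft2 slides and above 0 on both aft1 slides, against 8.95% of all genes, and the reverse held for 0 of 7, against 10.6%.

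The SMF3 difference kept its sign under all 12 alternatives, from -1.76 to -1.28, but its call did not survive the loss of any of the 4 slides. It was -1.32 and -1.72 without replicate 1 and replicate 2 of Y18daft2, and -1.76 and -1.28 without replicate 1 and replicate 2 of aft1 (adjusted p = 0.4, 0.447, 0.193 and 0.289, limma). Without the channel coefficient, which is the replicate block, the adjusted p was 0.0501, and over all alternatives it ran between 0.000275 (weak scans) and 0.999 (trend from the other comparisons).

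Hydroxyurea was compared with rich medium in Y18daft2 over CM3260, again with separate slides for each. None of the 7 genes was called, where 0.736% of all genes were, and 2 had an unadjusted p under 0.05 against 11.6%. These were SMF3, at -0.51 (SE 0.219, adjusted p = 0.397, limma), and MRS4, at -0.44 (SE 0.192, adjusted p = 0.41). ISU2 at -0.35, NAR1 at -0.22, COT1 at -0.11 and FTH1 at -0.06 had intervals that included 0. ATX1 differed by 0.03 (95% interval -0.31 to 0.37). The slides did not overlap, with hydroxyurea lower, for SMF3, MRS4 and ISU2, against 26.2% of all genes. The SMF3 value depended on the rich medium slides. With 1 rich medium slide left, adjusted by the channel coefficient of the other slides, it was -0.07 without replicate 1 and -0.95 without replicate 2.

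**Figure D4:**
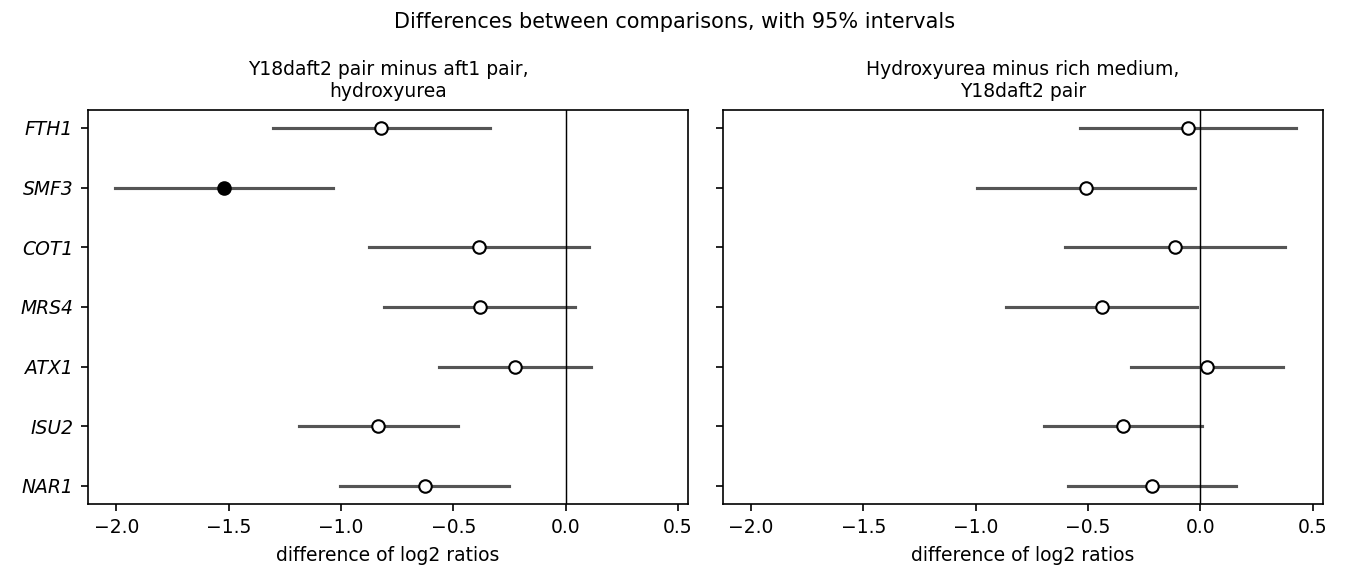
Differences between comparisons for the 7 genes, as differences of log2 ratios with 95% intervals from the fit. The left panel shows Y18daft2 over CM3260 minus aft1 over BY4741 in hydroxyurea and the right panel hydroxyurea minus rich medium in Y18daft2 over CM3260. The filled point, SMF3 at -1.52, is the one past the threshold.

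Other genes of the same pathways were read from lists. Over all genes 0.160% were called in Y18daft2 in hydroxyurea, 2.01% in rich medium and 1.28% in the aft1 strain. With so few calls, a count of 0 in a short list says little about its pathway. Of 7 measured genes of vacuolar metal transport, 0 were called in Y18daft2 in hydroxyurea (median -0.17) and in rich medium (median -0.13). In the aft1 strain 1 fell, CCC1, which pumps iron into the vacuole, at -0.57 (SE 0.111, adjusted p = 0.0422, limma), in the strain where SMF3 was the highest of the list at 0.69. Of 5 genes of mitochondrial metal transport 0 were called in any comparison, with medians of -0.15, -0.09 and 0.02 in Y18daft2 in hydroxyurea, in rich medium and in the aft1 strain. The lowest and highest of them in the aft1 strain were MMT2 at -0.14 and MRS3 at 0.31.

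Copper handling held 9 measured genes, and ATX1 was the lowest of them in all 3 comparisons. In rich medium ATX1 fell and SOD1, the copper-zinc superoxide dismutase, rose to 0.78 (SE 0.123, adjusted p = 0.00948, limma). In hydroxyurea SOD1 read -0.14 in Y18daft2, and its difference between the media, -0.91, was called (adjusted p = 0.0443, limma). SOD1 had exact zeros in 2 of 6 strong scans, which were left out, so that those slides rest on the weak scan. In rich medium SOD1 was 0.37 both as deposited and with centring alone, fits without trend removal that also leave the zeros out. It was called in neither (lowest adjusted p = 0.964, limma). Its rise was lost without replicate 1 (0.71, adjusted p = 0.0679), and its difference between media was -0.18 as deposited and was lost without either slide in hydroxyurea or replicate 1 in rich medium. In hydroxyurea 0 of the 9 were called in Y18daft2 or in the aft1 strain, with highest values of 0.15 for SCO1 and 0.27 for CUP2.

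Of 9 genes of mitochondrial iron-sulfur assembly, ISU2 was the single call in any comparison, and the lowest in the aft1 strain was MGE1, a matrix co-chaperone, at -0.33. The list medians were -0.01 in Y18daft2 in hydroxyurea, 0.01 in rich medium and -0.04 in the aft1 strain. Of 6 genes of cytosolic iron-sulfur assembly, NAR1 rose in the aft1 strain, where the lowest was YAE1 at -0.25 and the median was 0.00. In rich medium DRE2, which passes electrons to that machinery, rose to 0.51 (SE 0.112, adjusted p = 0.048, limma) and all 6 lay above 0, where 48.6% of all genes lay below it, with a median of 0.195. DRE2 had an exact zero in 1 of 6 strong scans, left out, and its rise was lost without replicate 1 (0.46, adjusted p = 0.445) or replicate 2 (0.56, adjusted p = 0.4, limma). In Y18daft2 in hydroxyurea 0 of the 6 were called, between -0.22 for LTO1 and 0.04 for NBP35. The medians of both lists thus lay near 0 in the aft1 strain, where ISU2 and NAR1 rose.

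Among 12 measured genes listed under iron-sulfur proteins, GLT1, glutamate synthase, fell in rich medium at -0.69 (SE 0.116, adjusted p = 0.014, limma). It read 0.02 in Y18daft2 in hydroxyurea and -0.55 in the aft1 strain, where it did not pass (adjusted p = 0.0536, limma). Whether each listed protein carries a cluster in budding yeast was not checked. In the aft1 strain 0 of the 12 were called, and 11 lay below 0, with a median of -0.20, where 51.6% of all genes lay below 0, with a median of -0.01. In surface iron uptake, with 7 measured genes, FIT3 and the siderophore transporter ENB1 fell in each comparison and the other 5 were not called. ENB1 read -2.25 in Y18daft2 in hydroxyurea, -1.14 in rich medium and -1.37 in the aft1 strain (largest adjusted p = 0.000655, limma), and its call in the aft1 strain was lost without replicate 2 (-1.26, adjusted p = 0.0765). All of these FIT3 and ENB1 values were lower than any fitted value of the 7 intracellular genes. FIT2, of the same list, was not low: it read 0.22 in Y18daft2 in hydroxyurea, 0.02 in rich medium and 0.001 in the aft1 strain. Zinc homeostasis, to which COT1 also belongs, had 9 measured genes. IZH4, a membrane protein linked to zinc, rose to 1.30 in the aft1 strain (SE 0.11, adjusted p = 0.000213, limma) and read 0.39 in Y18daft2 in hydroxyurea, a called difference of -0.90 (adjusted p = 0.0441, limma). The rise was lost without replicate 2 of aft1 (1.2, adjusted p = 0.0807), and the difference without any of the 4 slides (lowest adjusted p = 0.278, limma). Its relative IZH3 rose to 0.74 in rich medium (SE 0.108, adjusted p = 0.00578, limma).

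The list calls had the same limits as those of the 7 genes. As deposited, and with the trend taken from the other comparisons, the calls of CCC1 in the aft1 strain, of SOD1, DRE2, GLT1, IZH3 and ENB1 in rich medium, and the differences of SOD1 and IZH4 were lost, and the rise of IZH4 in the aft1 strain was lost as deposited (adjusted p = 0.551, limma) but kept with the other trend (adjusted p = 0.0268). CCC1 (-0.51 and -0.64), GLT1 (-0.63 and -0.74) and IZH3 (0.73 and 0.75) were also not called without replicate 1 and without replicate 2 of their comparison (lowest adjusted p = 0.336, 0.0668 and 0.0536, limma).

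**Figure D5:**
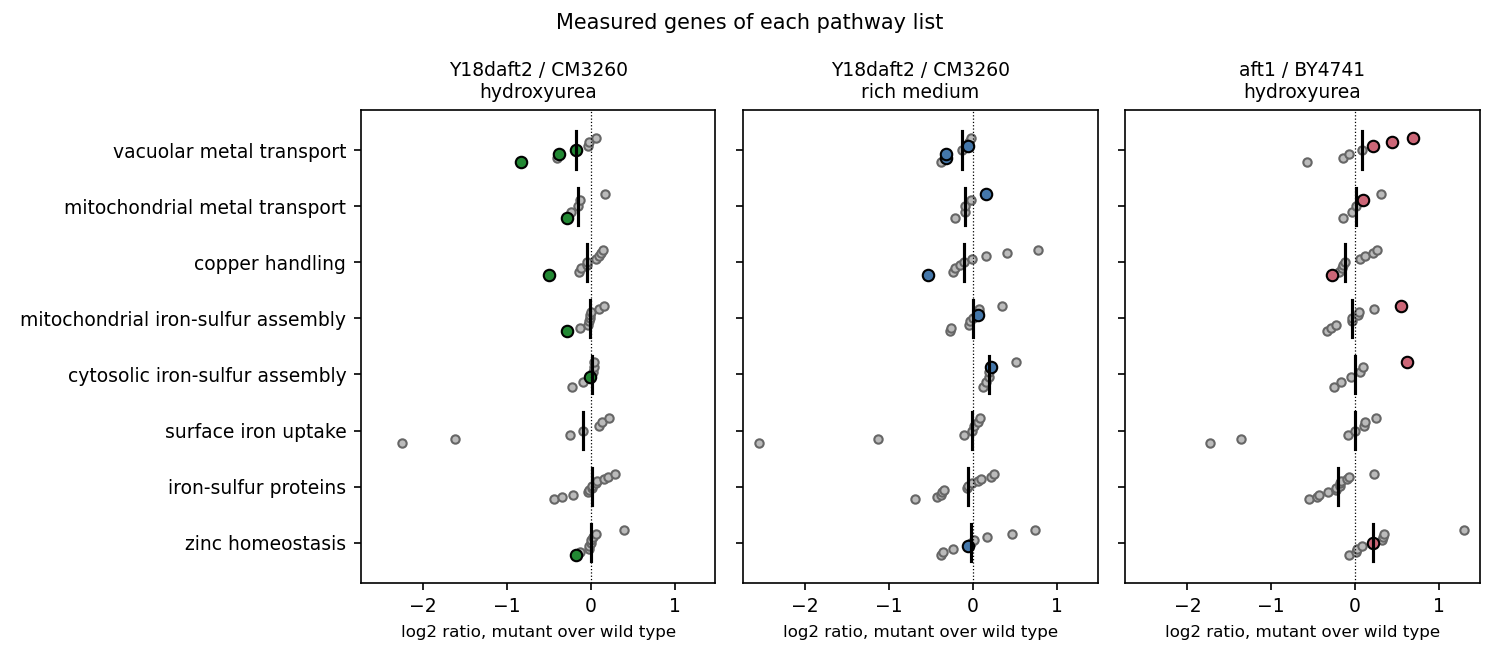
Fitted log2 ratios (mutant over wild type) of the measured genes of 8 pathway lists in each comparison. Points are genes, coloured where they belong to the 7 described here, spread vertically only for visibility, and black bars are list medians. In the aft1 strain ISU2 and NAR1 are the highest points of lists whose medians lie near 0, and FIT3 and ENB1 lie far to the left in all panels.

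Likeness of pattern was measured as Pearson's r over the 6 slide values, as a description, since slides of a comparison share strains and medium. Among the 7 genes SMF3, ISU2 and NAR1 went most closely together (r = 0.987 for SMF3 and ISU2, 0.962 for SMF3 and NAR1 and 0.959 for ISU2 and NAR1), and COT1 and MRS4 least (r = -0.156). ATX1 correlated with SMF3 at 0.888, although ATX1 stayed below 0 throughout. Over all genes the patterns most like SMF3 were those of GTO1 (r = 0.999) and YPL277C (0.99), those most like ISU2 were YOR062C (0.997) and TCO89 (0.992), and those most like NAR1 were GID11 (0.999) and HER1 (0.993). WSC3 (0.987) and MLP1 (0.985) were most like ATX1. Pearson's r takes no account of level or size. In rich medium, Y18daft2 in hydroxyurea and the aft1 strain WSC3 read -0.05, 0.02 and 0.49 and MLP1 -0.09, -0.11 and 0.09. ATX1 read -0.53, -0.50 and -0.28 there. GTO1 read -0.04, -0.11 and 0.12 against -0.32, -0.83 and 0.69 for SMF3. With 6 values such likeness was common: 97 genes reached an r of 0.9 with SMF3 and 91 with ATX1.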

How the data were processed

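The deposited values were log ratios of the channels for 6912 spots in 12 columns, read as log2, an assumed base. How the authors made them (background subtraction, spot filters, normalisation) and the genome build are not stated by the labels or the file headers. Exact zeros of strong scans (623 of 41472 values) were set to missing. Each column was centred on its median. The trend that the columns shared in channel orientation was then removed by loess (span 0.3, degree 1) on the mean of the 6 slides. That mean includes each slide's own values. Taking it from the slides of the other comparisons leaves them out, and was kept as an alternative. The median SE was 0.173 with the alternative and 0.116 with the mean of all 6 slides. Which of these is nearer the real spread is not known here. With the mean of all 6 slides 419, 174 and 440 genes had an unadjusted p under 0.05 in rich medium, in Y18daft2 in hydroxyurea and in the aft1 strain. With the alternative the counts were 158, 48 and 129, where 156.4 are expected by chance. The choice of mean was made after seeing the data, and it decides whether any of the 7 genes is called. Ratios were turned to mutant over wild type, the 2 scans of a slide and the spots of a gene were averaged, and limma 3.58.1 (R 4.3.3) was fitted to all 3127 genes with 1 gene symbol, with 3 comparison coefficients and 1 channel coefficient. P-values were adjusted with Benjamini-Hochberg over all genes, threshold 0.05. The script was tested on simulated data. The channel coefficient is also the replicate block: on median-centred values the deviations of same-numbered slides correlated at 0.886, 0.634 and 0.609. Spots were named from the platform annotation, with 3344 spots carrying 1 symbol, 387 several and 3181 none. Signal over background is unknown, since spot intensities were not used here.

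The genes and pathway lists were chosen with earlier results of these data known. Named in the text are the 7 genes, called genes of the lists and otherwise at most the lowest and highest gene of a list in a comparison, AFT1, AFT2, FIT3 and ENB1, and for likeness the 2 genes with the highest Pearson correlation over the 6 slides. Alternatives were the values as deposited, median-centring alone, single scans, no channel coefficient, all columns with the slide as a random block, a looser filter, each slide left out, columns taken as already turned, and each ISU2 spot alone. The labels do not say whether the slides of a comparison came from separate cultures, so p-values measure at most the spread between slides. Much of the spread used for a gene is that of all genes, since limma weighed 8.31 prior against 2 residual degrees of freedom.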

Additional observations from a re-analysis of the deposited data

Results flagged for a closer look

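Each of 3 genes had ratios below 0 on both Y18daft2 slides and above 0 on both aft1 slides in hydroxyurea, as did 8.95% of the 3127 genes. The difference between the comparisons, Y18daft2 over CM3260 minus aft1 over BY4741, was -1.52 for SMF3 and past the threshold (adjusted p = 0.0219, limma). It was -0.82 for FTH1 and -0.83 for ISU2, and neither passed (adjusted p = 0.186 and 0.0597, limma). The FTH1 difference ran from -1.23 to -0.41 with 1 slide left out, and the ISU2 difference was -0.23 from spot 1 alone and -1.44 from spot 2 alone. Of the 4 slides for each gene, 2 of 2 were lower in Y18daft2 and 2 of 2 higher in the aft1 strain. AFT1 itself read -0.18 in Y18daft2 and -3.06 in the aft1 strain, and the strain backgrounds differ, so genotype and background cannot be told apart.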

How the results depend on the processing

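The number of the 7 genes called in rich medium, 1, was 0 in the values as deposited, with median-centring alone, in strong scans alone, with all 12 columns fitted, with the trend taken from the other comparisons and with the columns taken as already turned. In the aft1 strain the number, 2, was 0 under the same settings, except that all 12 columns gave 2. In Y18daft2 in hydroxyurea the number, 0, was 1 in weak scans alone (SMF3) and 1 without the replicate block (ATX1). For the difference between the strains in hydroxyurea the number, 1, was 0 as deposited, with centring alone, in strong scans and with the other trend, and 3 in weak scans and 3 with all 12 columns (SMF3, ISU2 and NAR1). With 1 slide left out the numbers ran from 0 to 1 in rich medium, from 0 to 0 in the aft1 strain, from 0 to 1 for hydroxyurea minus rich medium, and from 0 to 0 for the difference between the strains; an arm with 1 slide is assumed to vary like the others. The 1 call in rich medium without replicate 1 was SMF3, not ATX1. Without the replicate block the SMF3 difference between strains (adjusted p = 0.0501) lost its call, ISU2 there (0.0379) and ATX1 in Y18daft2 in hydroxyurea (0.0418) gained one, and no other call of the 7 genes changed (limma). That fit counts a degree of freedom that the trend removal had used.

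Calls over all genes moved more widely. In rich medium 63 genes were called, against 2 as deposited, 5 centred, 149 in weak scans, 12 in strong scans, 161 without the block, 117 with all columns, 2 with the other trend and 0 with columns already turned. In Y18daft2 in hydroxyurea 5 were called, against 2, 2, 12, 3, 9, 4, 3 and 0 in that order, and in the aft1 strain 40, against 3, 5, 175, 4, 111, 151, 4 and 0. For hydroxyurea minus rich medium 23 were called, against 84 in weak scans, 66 without the block, 57 with all columns and 0 in the other 4 settings run, and for the difference between strains 11, against 62, 24 and 47, and 1 or 2 in the other 4.

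SMF3 in rich medium was called without replicate 1, where its sign did not change. Values that changed sign were uncalled both before and after the change. As deposited these were MRS4 in rich medium (-0.0275) and in the aft1 strain (-0.025), NAR1 in Y18daft2 in hydroxyurea (0.07), and ATX1 in hydroxyurea minus rich medium (-0.0225) and in the difference between strains (0.0175). With centring alone they were MRS4 in rich medium (-0.03) and NAR1 in Y18daft2 in hydroxyurea (0.1175). NAR1 there was also 0.001606 in strong scans and 0.02504 with the other trend, MRS4 in the aft1 strain was -0.04301 in strong scans, ATX1 in hydroxyurea minus rich medium was -0.06321 in weak scans, and ISU2 in rich medium was -0.004314 from spot 1. With 1 slide left out, values in rich medium ran from -0.6426 to 0.008773 for FTH1, -0.7628 to 0.1138 for SMF3, -0.1371 to 0.4397 for MRS4, -0.3622 to 0.2475 for COT1 and -0.07005 to 0.1968 for ISU2. They ran from -0.2043 to 0.1972 for NAR1 in Y18daft2 in hydroxyurea, and in the aft1 strain from -0.182 to 0.3703 for MRS4 and -0.2175 to 0.6459 for COT1. For hydroxyurea minus rich medium they ran from -0.3829 to 0.2685 for FTH1, -0.4184 to 0.1913 for COT1 and -0.00214 to 0.06294 for ATX1, and for the difference between strains from -0.8168 to 0.04658 for COT1. The cause of these changes was not tested. Signal over background limits the precision to an unknown degree.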
